A study of Arabidopsis thaliana with 18 samples.

Results

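WRKY transcription factors are plant proteins that bind DNA through a domain named after the amino acids WRKYGQK. The typical binding site, the W-box, is built around TTGAC. Members are sorted by structure. Group I has a pair of WRKY domains, group II has 1 domain and is divided into IIa to IIe, and group III has 1 domain with a different zinc finger. In leaves the family is known for control of defence against pathogens, salicylic acid signalling, leaf senescence and responses to abscisic acid (ABA) and drought. WRKY genes often carry W-boxes in their own promoters, and many are switched on within minutes to hours of an elicitor or stress. Jasmonate and salicylic acid signalling meet at several members, among them WRKY70.

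The family was taken as every gene entry named WRKY plus a number and nothing else. That gave 70 of the 27655 genes in the files. The family genes first counted as WRKY16 and WRKY52 stand under other names and are not among the 70. All 70 proteins of the reference annotation hold the motif, and the main group read from the sequence (I, II or III; the subgroups IIa to IIe were not read from it) was the listed one for 68 of the 68 members placed in a group. Of the 70, 55 had 20 or more reads over the 18 libraries and were tested. The other 15 (WRKY9, 10, 14, 24, 34, 35, 41, 43, 49, 56, 64, 66, 67, 68 and 72) had 0 to 17 reads in all and were not tested, with WRKY10, WRKY34 and WRKY66 at 0. The tested genes were 11 of 12 in group I, 3 of 3 in IIa, 6 of 8 in IIb, 13 of 18 in IIc, 7 of 7 in IId, 5 of 7 in IIe and 9 of 13 in group III, with WRKY19 unplaced. Only 2 tested members, WRKY59 and WRKY74, would have missed the minimum of reads without the group of libraries in which they were highest.

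The samples were whole rosette leaves of 32-day-old Arabidopsis thaliana, measured by 3′ mRNA sequencing, in which a transcript is counted near its 3′ end. The 3 genotypes were jar1-11, an insertion mutant of JAR1 in the Col-0 background, JAR1-OE, a line that overexpresses JAR1.1, and wild-type Col-0 (WT). JAR1 makes the active hormone jasmonoyl-isoleucine. Drought plants had 14 days without water after 18 days of watering, and their controls were watered throughout. Each of the 6 groups had 3 libraries, called biological replicates in the labels, which do not say whether a library is 1 plant or a pool, so the p-values reflect only how far these libraries vary, which may be technical. JAR1 stood at 2.85 ± 1.18 CPM (reads per 1000000 reads on genes) in drought jar1-11 leaves, against 33.3 ± 7.30 CPM in drought WT leaves, and at 5.74 ± 0.799 CPM in watered jar1-11 leaves, against 25.4 ± 4.31 CPM in watered WT leaves (SD, n = 3 each). JAR1-OE leaves had 33 ± 5.0 CPM in drought and 23.5 ± 3.52 CPM when watered, overlapping those of WT. A separate YFP-JAR1 entry had 26 to 558 reads in the 6 JAR1-OE libraries and 0 reads in each of the other 12.

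Libraries held 4716155 to 9506727 reads on genes, so that 3 reads correspond to 0.316 to 0.636 CPM. Of the libraries, the second of the drought jar1-11 group stood apart for this family. Its weight is given beside many, not all, of the counts and calls that moved without it. Leaf mesophyll markers (5 of 5 detected) summed to 1640 to 2682 CPM in drought jar1-11 leaves. They were 13160 to 18215 CPM in drought JAR1-OE leaves and 5676 to 6929 CPM in drought WT leaves. Watered leaves had 9755 to 13474 CPM in jar1-11, 23028 to 27565 CPM in JAR1-OE and 11183 to 13466 CPM in WT. Flower markers (7 of 7 detected) reached 41.1 CPM in 1 drought WT library and 12.3 to 39.9 CPM in the drought JAR1-OE libraries, and were 0.253 to 5.75 CPM in all others. Mitosis markers (3 of 3 detected) summed to 4.91 to 16.9 CPM in the JAR1-OE libraries and 0.617 to 4.01 CPM in all others. Root markers (4 of 5 detected) summed to 10.4 to 12.1 CPM in drought jar1-11 leaves and 19.5 to 43.4 CPM elsewhere. PYK10, WER and RHD6 were at 0 in drought and in watered jar1-11 leaves. RHD6 was at 0 in every group, and PYK10 also in drought WT leaves. The organelle share of reads was lowest in drought jar1-11 leaves, at 2.03 to 3.85%, against up to 6.29% elsewhere. The part of these in the WRKY values was not tested. In whole leaves, fewer cells of a type and less RNA per cell cannot be told apart.

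Summed over the 70 genes, WRKY transcripts were most abundant in drought jar1-11 leaves. The sums were 1427, 2587 and 1395 CPM in drought jar1-11 leaves, 856, 711 and 727 CPM in drought JAR1-OE leaves and 514, 678 and 733 CPM in drought WT leaves. In watered leaves they were 907, 880 and 1027 CPM in jar1-11, 723, 695 and 709 CPM in JAR1-OE and 968, 1009 and 885 CPM in WT. All 3 drought jar1-11 libraries lay above all 15 others, and all 3 drought WT libraries lay below the watered WT ones. WRKY70 accounted for much of the sum, and without it the sums were 1063 to 1864 CPM in drought jar1-11 leaves, 514 to 627 CPM in drought JAR1-OE leaves and 462 to 585 CPM in drought WT leaves, against 735 to 805 CPM in watered WT leaves.

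**Figure D1:**
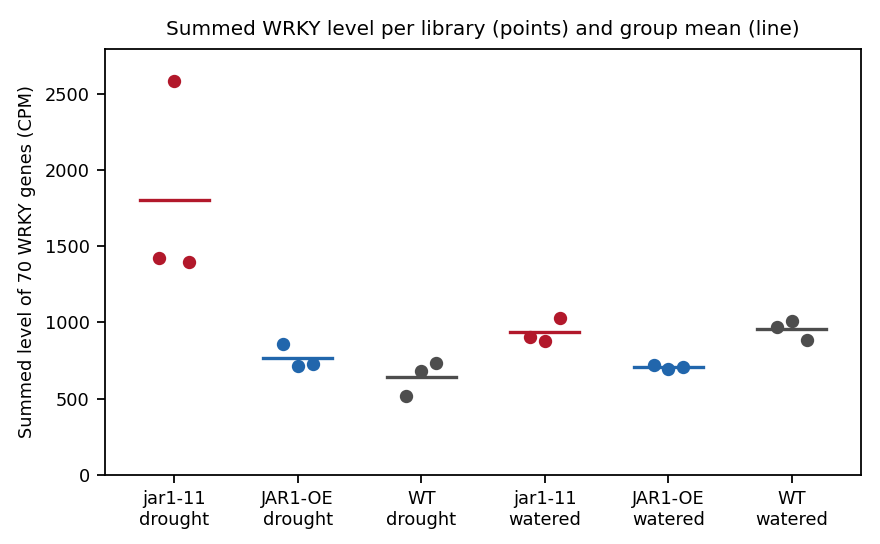
Summed level of the 70 WRKY genes in CPM (vertical axis, from 0) for each of 6 groups of 3 libraries; points are libraries and lines are group means. The drought jar1-11 libraries sit at 1395 to 2587 CPM, above all other libraries, and the drought WT libraries at 514 to 733 CPM.

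Before the values, the sequences of a few members show what the family shares and where it varies. In 67 of the 70 the first motif reads WRKYGQK, and in WRKY50, WRKY51 and WRKY59 it reads WRKYGKK. The coding bases of the last motif, which in WRKY33 is the second of 2 and in the others the only one, are given for those 3, which differ from the rest, and for WRKY70, WRKY33 and WRKY75, which carry much of the drought result. Capitals mark the sixth codon, which sets glutamine or lysine. They were read on the coding strand from the TAIR10.1 reference.
WRKY50: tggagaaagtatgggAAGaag
WRKY51: tggaggaagtatggcAAGaaa
WRKY59: tggaggaaatacggaAAGaag
WRKY70: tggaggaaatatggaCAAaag
WRKY33: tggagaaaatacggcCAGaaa
WRKY75: tggaggaaatatggcCAAaag
WRKY50 and WRKY51, known for restraining jasmonate responses when salicylic acid signalling is on, were among the tested members with the variant motif, and both were higher in drought jar1-11 than in drought WT leaves. The call of WRKY50, with 15.8, 40.9 and 14.1 CPM, against 2.94, 5.32 and 13.4 CPM, was lost without the second drought jar1-11 library (adjusted p = 0.058). WRKY59 had 1.47 CPM or less in every drought library.

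The promoter windows are the 300 bases before the annotated gene start, 5′ to 3′ on the gene's strand, from the TAIR10.1 reference. Capitals mark W-boxes, searched as TTGACC or TTGACT on either strand (read as GGTCAA or AGTCAA on the other). WRKY30, WRKY33, WRKY53 and WRKY75 are shown because they were higher in drought jar1-11 than in drought WT leaves and hold the motif. WRKY7 is shown because it fell in drought in all 3 genotypes and holds none. Other members with these calls differ: WRKY21 and WRKY26 also fell in all 3 genotypes and hold 1 each, and WRKY6, WRKY18, WRKY40 and WRKY70 were higher in drought jar1-11 than in drought WT leaves and hold none.
WRKY30 (chr5:8154711-8155010, minus strand): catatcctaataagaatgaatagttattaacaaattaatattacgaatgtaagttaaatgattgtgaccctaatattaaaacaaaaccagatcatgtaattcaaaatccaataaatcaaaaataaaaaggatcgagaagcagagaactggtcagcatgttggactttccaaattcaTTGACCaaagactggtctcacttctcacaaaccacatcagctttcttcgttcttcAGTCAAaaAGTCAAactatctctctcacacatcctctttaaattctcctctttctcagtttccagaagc
WRKY33 (chr2:16107935-16108234, plus strand): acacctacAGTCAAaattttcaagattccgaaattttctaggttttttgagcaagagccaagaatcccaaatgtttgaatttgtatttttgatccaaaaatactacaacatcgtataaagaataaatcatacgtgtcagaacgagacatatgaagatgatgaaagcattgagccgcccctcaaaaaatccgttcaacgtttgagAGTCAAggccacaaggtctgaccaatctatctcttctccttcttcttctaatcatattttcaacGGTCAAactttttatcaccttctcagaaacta
WRKY53 (chr4:12393983-12394282, minus strand): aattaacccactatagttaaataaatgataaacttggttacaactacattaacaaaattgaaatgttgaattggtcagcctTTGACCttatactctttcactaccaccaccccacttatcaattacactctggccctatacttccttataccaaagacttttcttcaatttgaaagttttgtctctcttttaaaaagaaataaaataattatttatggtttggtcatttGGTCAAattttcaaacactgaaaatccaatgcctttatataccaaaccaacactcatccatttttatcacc
WRKY75 (chr5:4151202-4151501, minus strand): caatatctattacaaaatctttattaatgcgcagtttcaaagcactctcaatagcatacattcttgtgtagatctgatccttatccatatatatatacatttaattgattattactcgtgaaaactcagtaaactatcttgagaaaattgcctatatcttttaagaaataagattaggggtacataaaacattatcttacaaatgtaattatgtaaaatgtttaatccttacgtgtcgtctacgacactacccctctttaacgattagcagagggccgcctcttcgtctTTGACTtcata
WRKY7 (chr4:12571238-12571537, plus strand): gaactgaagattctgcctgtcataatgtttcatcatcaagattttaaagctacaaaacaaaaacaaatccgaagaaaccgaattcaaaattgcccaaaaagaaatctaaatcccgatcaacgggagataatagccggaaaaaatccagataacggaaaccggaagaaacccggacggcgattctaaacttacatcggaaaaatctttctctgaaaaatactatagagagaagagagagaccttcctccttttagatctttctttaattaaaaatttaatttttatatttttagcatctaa
WRKY30 and WRKY33 held 3 W-boxes each, WRKY53 held 2 and WRKY75 held 1, whose first base lies 11 bases before the gene start. Of the 55 tested members 22 held at least 1 (40%), against 31.7% of 19647 tested genes with a promoter in the reference, and 9 held 2 or more (16.4%), against 7.65%. A match is a description of the letters and was not tested as a binding site.

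Drought in WT leaves was marked by falls in the family. By edgeR's quasi-likelihood test with Benjamini-Hochberg adjustment over all 19752 tested genes, at an adjusted p under 0.05, 17 of the 55 members fell and 3 rose, where 18.8% of all tested genes fell and 16.6% rose. The median log2 fold change was -0.49 over the members and 0.00 over all tested genes. The falls included WRKY18, WRKY54 and WRKY53, which belong to the salicylic acid and defence members, and WRKY26 and WRKY25, which act with WRKY33 in heat tolerance. The 3 members that rose were WRKY32 (log2 fold change 0.91 ± 0.20, adjusted p = 0.0012), WRKY4 (0.76 ± 0.15, adjusted p = 0.00068) and WRKY11 (0.75 ± 0.20, adjusted p = 0.0054). Throughout the fold changes ± is a standard error derived from the test, as the absolute log2 fold change over the square root of its F statistic.

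WRKY18 (AT4G31800) works with WRKY40 and WRKY60 as a partner set in defence and ABA signalling. It had 23.3, 30.02 and 16.3 CPM in drought WT leaves, against 132, 102 and 88.5 CPM in watered WT leaves. The groups lay far apart, and the log2 fold change was -2.20 ± 0.26 (adjusted p = 1.6e-06). WRKY60 stood at 4.49, 3.67 and 3.55 CPM in drought WT leaves, against 9.12, 7.52 and 4.96 CPM in watered WT leaves. Its log2 fold change of -0.87 ± 0.33 passed narrowly (adjusted p = 0.045) and was lost in 11 of the 18 fits that left out 1 library, with an adjusted p of up to 0.161. For WRKY40 the log2 fold change was 0.78 ± 0.50 (adjusted p = 0.25).

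WRKY54 (AT2G40750) restrains senescence and, with WRKY46 and WRKY70, acts in brassinosteroid and drought responses. It had 5.01, 4.05 and 8.79 CPM in drought WT leaves, against 19.8, 35 and 21.1 CPM in watered WT leaves, a log2 fold change of -2.10 ± 0.31 (adjusted p = 3.0e-05). All drought values lay below all watered ones. WRKY53, an activator of leaf senescence, had 5.01, 4.81 and 7.09 CPM in drought WT leaves, against 11.3, 15 and 10.9 CPM in watered WT leaves. Its log2 fold change was -1.14 ± 0.35 (adjusted p = 0.015), and its adjusted p rose to at most 0.064 when the second watered or the second drought WT library was left out. WRKY70 overlapped between its groups, at 52.2, 93.7 and 158 CPM in drought WT leaves, against 168, 204 and 150.0 CPM in watered WT leaves (log2 fold change -0.78 ± 0.33, adjusted p = 0.076).

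WRKY7 (AT4G24240), a calmodulin-binding group IId member known as a negative regulator of defence against bacteria, had 2.25, 1.90 and 5.09 CPM in drought WT leaves, against 17.8, 14.2 and 15 CPM in watered WT leaves (log2 fold change -2.35 ± 0.28, adjusted p = 1.9e-06). WRKY26 had 5.70, 10.5 and 14.2 CPM in drought WT leaves, against 91.2, 52.5 and 35.6 CPM in watered WT leaves (-2.54 ± 0.35, adjusted p = 9.7e-06). Neither gene's groups overlapped. WRKY47 fell by 2.54 on the log2 scale (adjusted p = 5.7e-05) and WRKY21 by 0.91 (adjusted p = 0.00022). Some falls were of genes with very few reads: WRKY29 had 0 reads over the 3 drought WT libraries, against 12 over the watered ones, which is at least 4.57-fold lower with a floor of 3 reads over the group. WRKY30 had 2 reads, against 15, which is 8.56-fold lower with an exact binomial 95% interval of 1.99 to 77.2. Such intervals and floors cover counting error only.

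The first drought WT library, the one with flower transcripts, had the lowest WRKY sum of its group. Without it 5 members rose and 14 fell in WT. Leaving out the second drought jar1-11 library, which belongs to neither group, gave 3 rises and 19 falls, with WRKY46 and WRKY70 as added falls.

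In drought jar1-11 leaves more members rose than fell. By edgeR's test 24 of the 55 members rose and 9 fell, where 25.9% of all tested genes rose and 27.7% fell (53.5% either way). The median log2 fold change was 0.71 over the members and -0.03 over all tested genes. The members that rose most among those with at least 5 CPM were WRKY75, WRKY28, WRKY6, WRKY30, WRKY40, WRKY33, WRKY32 and WRKY11. By group of the family the rises were 6 of 11 in group I, 1 of 3 in IIa, 2 of 6 in IIb, 6 of 13 in IIc, 3 of 7 in IId, 0 of 5 in IIe and 5 of 9 in group III, besides WRKY19. Without the second drought jar1-11 library only WRKY30 rose in group III (1 of 9), with 1 of 6 in IIb and 4 of 13 in IIc, and the other groups kept their counts of rises. By role, 4 of 9 senescence members rose and 1 fell, and 4 of 10 salicylic acid and defence members rose and 1 fell. Without that library 2 of 9 and 2 of 10 rose. These lists did not stand out. Of the ABA and drought members 4 of 8 rose, and of the necrotroph, heat and camalexin members 3 of 5, with 1 fall each. For phosphate 2 of 4 rose and 1 fell, and for development 4 of 7 rose and 0 fell. Without that library the rises in these were 1, 3, 2 and 3.

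WRKY75 (AT5G13080) promotes leaf senescence and takes part in phosphate starvation responses. It had 74.7, 177 and 85.5 CPM in drought jar1-11 leaves, against 2.19, 1.33 and 2.03 CPM in watered jar1-11 leaves, a log2 fold change of 5.90 ± 0.84 (adjusted p = 7.6e-06). In drought JAR1-OE leaves it had 12.7, 12 and 1.22 CPM, against 5.23, 2.27 and 1.94 CPM in watered ones (1.44 ± 0.82, adjusted p = 0.22). In drought WT leaves it had 0.691, 28.6 and 10.0 CPM, against 6.68, 4.58 and 2.55 CPM in watered ones (1.60 ± 0.78, adjusted p = 0.12). All drought jar1-11 libraries lay above all others, and the drought WT libraries were spread over a wide range that included the watered values.

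WRKY6 (AT1G62300), also tied to senescence and to phosphate, where it represses PHO1, had 40.3, 79.5 and 34.3 CPM in drought jar1-11 leaves, against 4.89, 3.69 and 3.90 CPM in watered ones (log2 fold change 3.61 ± 0.37, adjusted p = 1.2e-07). It had 10.2, 7.18 and 8.13 CPM in drought JAR1-OE leaves and 3.46, 12.2 and 10.9 CPM in drought WT leaves, and neither differed from its watered controls past the threshold. WRKY28, an activator of the salicylic acid synthesis gene ICS1, had 4.36, 8.55 and 6.45 CPM in drought jar1-11 leaves, against 0.521, 0.442 and 0.339 CPM in watered ones (3.81 ± 0.58, adjusted p = 1.7e-05). For both genes the drought and watered jar1-11 libraries lay well apart.

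WRKY33 (AT2G38470) is a substrate of the kinases MPK3 and MPK6 and activates camalexin synthesis. It had 135, 261 and 112 CPM in drought jar1-11 leaves, against 34.7, 37.9 and 44.9 CPM in watered ones (log2 fold change 2.12 ± 0.30, adjusted p = 8.3e-06). Drought values were 25.6, 20.6 and 14.9 CPM in JAR1-OE and 14.7, 30.02 and 36.7 CPM in WT, against 22.5, 21.1 and 24.9 CPM in watered JAR1-OE and 26.5, 35.8 and 28.5 CPM in watered WT. The drought and watered ranges of JAR1-OE and of WT overlapped. WRKY40 had 39.7, 87.5 and 28.3 CPM in drought jar1-11 leaves, against 3.64, 10.5 and 11.0 CPM in watered ones (2.67 ± 0.47, adjusted p = 8.7e-05). WRKY33, WRKY40, WRKY53, WRKY4, WRKY1, WRKY2, WRKY19, WRKY29 and WRKY69 overlap a gene on the opposite strand, and since no source used here says whether reads were counted by strand, their values are uncertain to that extent.

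WRKY70 (AT3G56400) had 305, 723 and 332 CPM in drought jar1-11 leaves, against 196, 161 and 226 CPM in watered ones. The groups did not overlap, and the second drought library was far above the other two. Its log2 fold change was 1.22 ± 0.33 (adjusted p = 0.0043), and 0.73 ± 0.30 (adjusted p = 0.054) without that library. WRKY46 behaved likewise, at 23.7, 59.6 and 19.1 CPM, against 15.5, 15.2 and 17.5 CPM, with 1.10 ± 0.36 (adjusted p = 0.014) and, without that library, 0.44 ± 0.31 (adjusted p = 0.26). Without it 26 of the 33 calls in jar1-11 remained, 17 rises and 9 falls. WRKY46, WRKY48, WRKY55, WRKY61, WRKY63, WRKY70 and WRKY71 were lost. With all libraries 43.6% of the tested members rose, where 25.9% of all tested genes did. The share of all tested genes without that library is not given here, so the 17 rises are not set against it. WRKY59, which reached the minimum of reads only through watered jar1-11 leaves (29 reads), then passed as a fall and is left aside. The log2 fold changes of WRKY40 and WRKY30 were 2.07 and 1.65 without that library, against 2.67 and 2.68 with it.

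Of the 9 members that fell in drought jar1-11 leaves, 8 also fell in WT (88.9%), the exception being WRKY42. Of all 5463 tested genes that fell in jar1-11, 54.6% also fell in WT. WRKY7 had 2.55, 1.74 and 1.66 CPM in drought jar1-11 leaves, against 14.3, 16.8 and 17.1 CPM in watered ones (log2 fold change -2.99 ± 0.30, adjusted p = 7.8e-08). WRKY54 had 11.1, 22.4 and 16.0 CPM, against 28.1, 31.5 and 39 CPM (-0.98 ± 0.28, adjusted p = 0.0068). Both fell with no overlap between the groups. WRKY65 had 0 reads over the 3 drought jar1-11 libraries, against 67 over the watered ones, at least 19-fold lower. WRKY47, WRKY26 and WRKY21 fell by 2.13, 1.49 and 1.14 on the log2 scale.

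**Figure D2:**
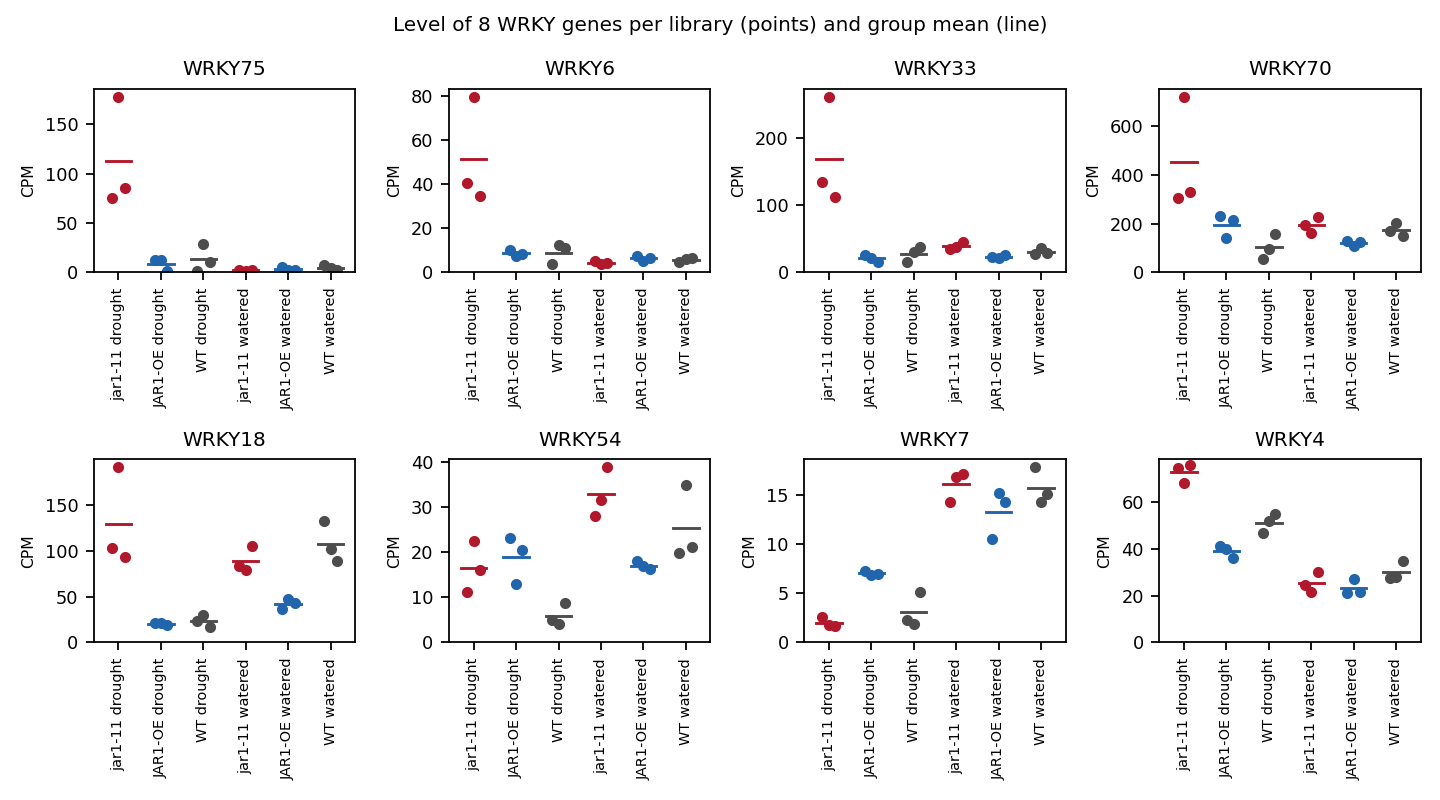
Level in CPM (vertical axes, from 0, scaled per gene) of 8 WRKY genes in each of 18 libraries (points) with the group mean (line), drought groups at the left and watered groups at the right. WRKY75, WRKY6 and WRKY33 are high in drought jar1-11 alone, WRKY18 is low in drought JAR1-OE and WT, WRKY7 is low in all 3 drought groups and WRKY4 is high in all 3.

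In drought JAR1-OE leaves few members changed. By edgeR's test 3 of the 55 rose and 6 fell, where 12.4% of all tested genes rose and 13.6% fell, and the median log2 fold change was 0.12 over the members. WRKY18 had 21.1, 21.2 and 19.5 CPM in drought JAR1-OE leaves, against 36.3, 47.4 and 43 CPM in watered ones (-1.03 ± 0.26, adjusted p = 0.0052), with no overlap. WRKY7 had 7.24, 6.86 and 6.91 CPM, against 10.5, 15.2 and 14.2 CPM (-0.92 ± 0.25, adjusted p = 0.011). WRKY65 fell by 1.77 on the log2 scale (adjusted p = 0.019). The falls of WRKY22, WRKY26 and WRKY21 (-1.32, -1.04 and -0.50) were lost in 2, 3 and 5 of the 18 fits that left out 1 library, with adjusted p up to 0.123, 0.127 and 0.101. The rises of WRKY1 (0.52, adjusted p = 0.046) and WRKY2 (0.46, adjusted p = 0.047) passed narrowly and were lost in 13 and 12 of those fits, with adjusted p up to 0.129 and 0.231.

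Side by side, 5 members (9.09%) were called in the same direction in all 3 genotypes, where 14.8% of all tested genes were. WRKY4, a group I member known for resistance to necrotrophic fungi, rose, with 74.4, 67.8 and 75.5 CPM in drought jar1-11, 41.1, 40.03 and 36.2 CPM in drought JAR1-OE and 46.6, 51.9 and 54.6 CPM in drought WT leaves. In watered leaves it had 24.5, 21.4 and 29.8 CPM in jar1-11, 21.1, 27.2 and 21.6 CPM in JAR1-OE and 27.6, 27.9 and 34.7 CPM in WT. Every drought library lay above every watered one. WRKY7, WRKY21, WRKY26 and WRKY65 fell in all 3. WRKY25, WRKY30 and WRKY71 rose in jar1-11 and fell in WT (5.45%), where 0.213% of all tested genes did. The rise of WRKY71 was lost without the second drought jar1-11 library. Another 18 rose in jar1-11 with no call in WT (32.7%, where 12.9% of all tested genes did). Of these 18, WRKY46, WRKY48, WRKY55, WRKY61, WRKY63 and WRKY70 lost their rise without the second drought jar1-11 library. With all libraries, 6 fell in WT with no call in jar1-11 (10.9%, where 3.53% did). The members called in no genotype were 15 (27.3%, where 34.9% were), WRKY45 and WRKY57 among them, both studied in leaf senescence.

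**Figure D3:**
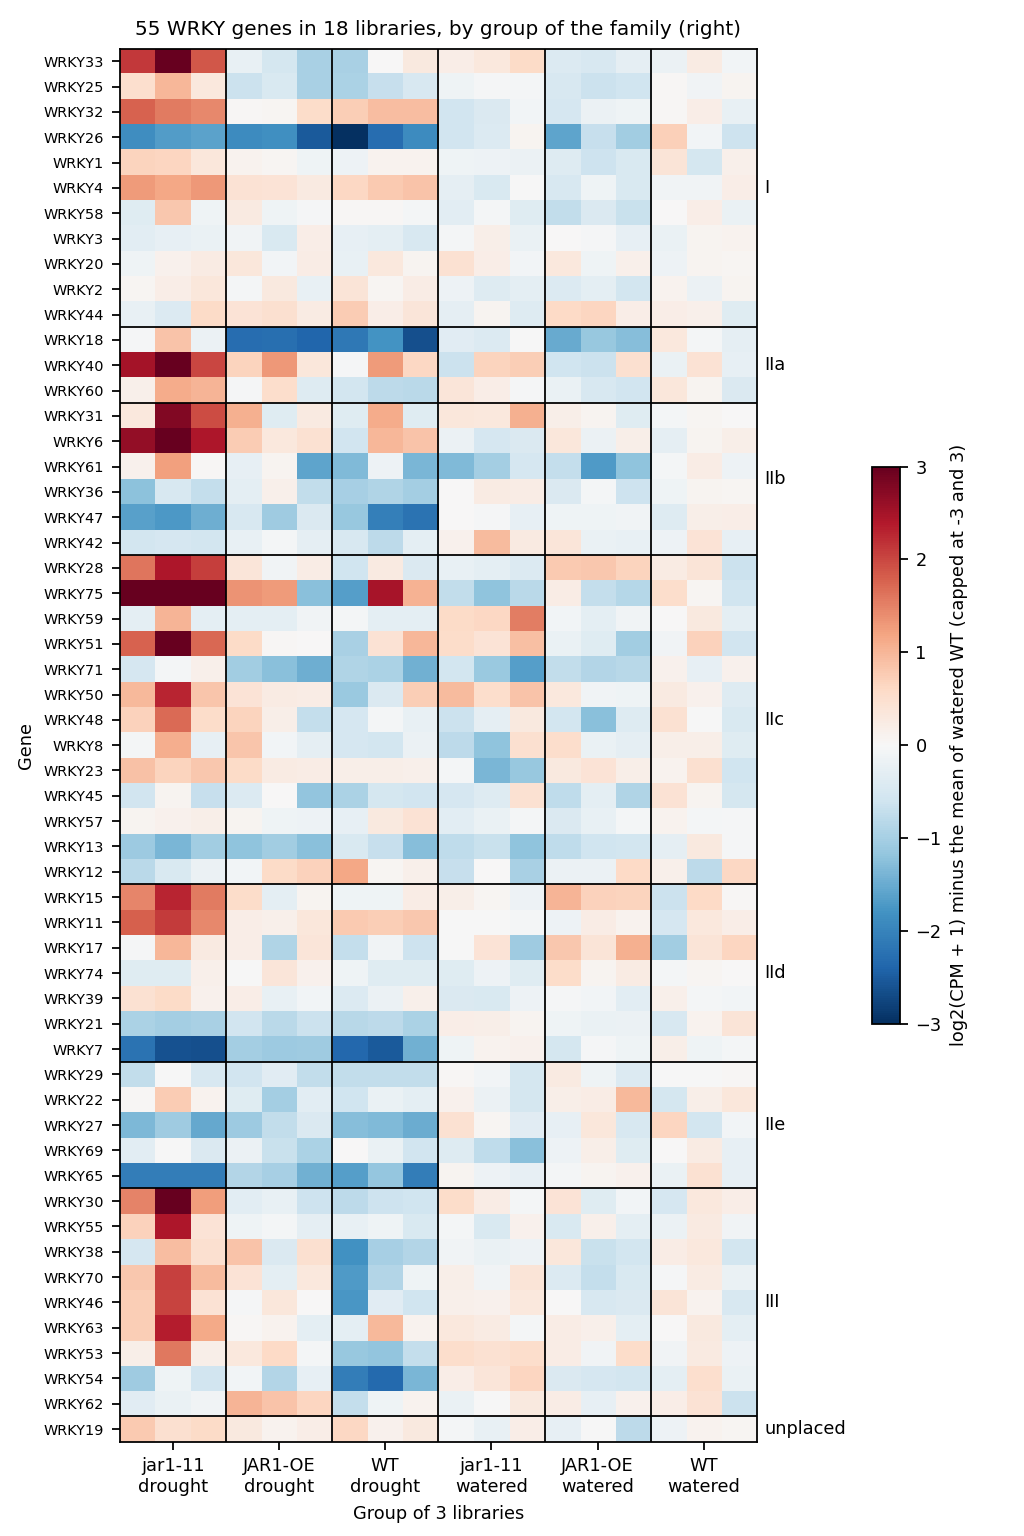
Each row is 1 of 55 tested WRKY genes, in order of the family's groups, and each column 1 of 18 libraries in 6 groups; colour gives log2(CPM + 1) minus the mean of watered WT, capped at -3 and 3. Red marks several genes of groups I, IIc and III in the drought jar1-11 columns, where the second library is the darkest, and blue marks WRKY26, WRKY18 and WRKY7 in drought WT.

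Whether drought acted differently between genotypes was tested on the difference of the drought responses (drought minus watered in jar1-11, minus the same in WT). By edgeR's test of this term 19 of the 55 members had a higher response in jar1-11 than in WT and 0 a lower one, where 5.72% of all tested genes had a higher and 8.01% a lower response. At an unadjusted p under 0.05 there were 31 members, either way. The share of all tested genes at that unadjusted level is not given here, so this count is a description only. The median difference was 1.13 over the members and -0.06 over all tested genes. WRKY18 differed by 2.74 ± 0.35 (adjusted p = 0.00023), WRKY33 by 2.27 ± 0.43 (adjusted p = 0.0027), WRKY6 by 2.97 ± 0.53 (adjusted p = 0.0020), WRKY70 by 2.00 ± 0.47 (adjusted p = 0.0098) and WRKY25 by 1.43 ± 0.25 (adjusted p = 0.0018). WRKY54 is not among them, at 1.12 ± 0.42 (adjusted p = 0.086). Without the second drought jar1-11 library 12 of the 19 remained, and WRKY38, WRKY39, WRKY46, WRKY53, WRKY60, WRKY61 and WRKY75 were lost. The genotypes also differed over the whole table. On the main axis of variation of the 1000 most variable genes (78.4% of their variance), drought jar1-11 libraries lay at 93.2 to 101.5. Drought WT libraries lay at 36.9 to 66.9, drought JAR1-OE ones at 6.12 to 7.58 and watered ones at -63.7 to -44.5. The part of this in the WRKY differences was not tested.

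**Figure D4:**
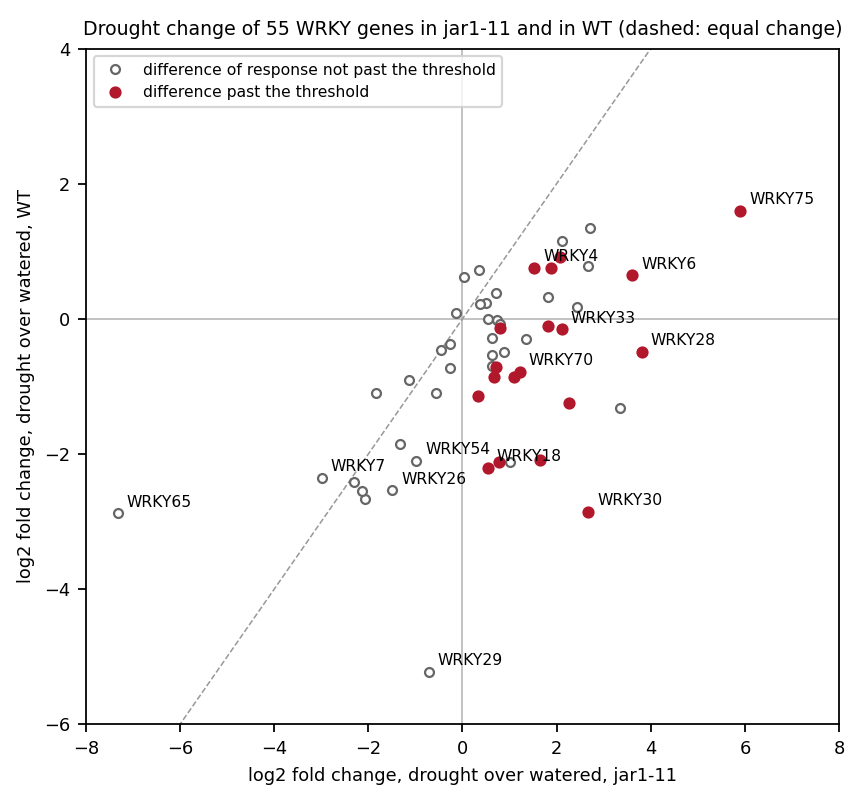
Log2 fold change in drought in jar1-11 (horizontal axis) and in WT (vertical axis) for 55 WRKY genes, with filled points where the difference of the 2 responses passed the threshold and a dashed line of equal change. All 19 filled points lie below and right of the line; the positions of WRKY65 and WRKY29, with 0 reads in a group, depend on the prior count of the fit.

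For JAR1-OE against WT, 3 members had a higher drought response and 0 a lower one. Of all tested genes 3.51% and 1.51% did (5.02% either way). At an unadjusted p under 0.05 there were 15 members, again with no share over all tested genes given. WRKY54 differed by 2.25 ± 0.43 (adjusted p = 0.0045). It had 23.3, 12.9 and 20.5 CPM in drought JAR1-OE leaves, against 18.0, 16.9 and 16.3 CPM in watered ones, and these groups overlapped, while those of WT did not. WRKY47 differed by 1.92 (adjusted p = 0.042) and WRKY7 by 1.43 (adjusted p = 0.034), which were lost in 12 and 8 of the 18 fits that left out 1 library, with adjusted p up to 0.117 and 0.0909. Without the second drought jar1-11 library, which belongs to neither genotype compared here, 6 members were called, and without the third watered WT library 5. Without the first or the third watered JAR1-OE library or the first drought one it was 1. For JAR1-OE against jar1-11, 5 members had a higher response (WRKY65, WRKY7, WRKY47, WRKY54 and WRKY21) and 14 a lower one, where 15.8% and 11.4% of all tested genes did. Among the lower ones were WRKY28 (-4.75 ± 0.80), WRKY6 (-3.17 ± 0.52), WRKY15 (-2.49 ± 0.39), WRKY33 (-2.28 ± 0.43) and WRKY11 (-1.70 ± 0.27). Of these 19 calls, 14 remained without the second drought jar1-11 library, and WRKY21, WRKY23, WRKY25, WRKY47 and WRKY71 were lost; without the first watered JAR1-OE library there were 12 calls.

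Compared directly in drought, jar1-11 leaves had more of many WRKY transcripts than WT leaves. By edgeR's test 26 of the 55 were higher and 1 lower, where 14.1% of all tested genes were higher and 16.8% lower, and the median log2 fold change was 0.94 over the members and -0.06 over all tested genes. The count was 9 of 10 for the salicylic acid and defence members (all but WRKY62), 6 of 9 for the senescence members, 6 of 8 for the ABA and drought members, 7 of 9 in group III and 3 of 3 in group IIa. These were 7 of 10, 5 of 9, 6 of 8, 5 of 9 and 3 of 3 without the second drought jar1-11 library. Among the other role lists, 3 of 5 necrotroph, heat and camalexin members were higher. For phosphate it was 2 of 4 and for development 2 of 7. In the other groups of the family it was 5 of 11 in I, 2 of 6 in IIb, 6 of 13 in IIc, 3 of 7 in IId and 0 of 5 in IIe. Without that library those role lists had 3, 2 and 1, and those groups 4, 1, 3, 2 and 0. The role lists share members, WRKY54 and WRKY70 being in 3 of them. Of the 26, 12 held a W-box (46.2%), where 40.6% of all tested genes with the same call did.

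WRKY18 was 2.47 ± 0.26 log2 units higher (adjusted p = 6.5e-06), with 103, 191 and 93.0 CPM in drought jar1-11 leaves, against 23.3, 30.02 and 16.3 CPM in drought WT leaves. WRKY33 was 2.64 ± 0.31 higher (adjusted p = 1.7e-05), WRKY70 2.16 ± 0.34 (adjusted p = 0.00016) and WRKY6 2.52 ± 0.34 (adjusted p = 4.7e-05). None of these 4 genes overlapped between the groups. WRKY53 had 14.1, 38.7 and 14.1 CPM in drought jar1-11 leaves, against 5.01, 4.81 and 7.09 CPM in drought WT leaves (2.00 ± 0.34, adjusted p = 0.00027). WRKY75 was 3.06 ± 0.68 higher (adjusted p = 0.0021) and WRKY28 3.44 ± 0.56 higher (adjusted p = 0.00021). Without the second drought jar1-11 library WRKY53 was 1.35 ± 0.26 higher, and without the second drought WT library WRKY75 was 4.39 and WRKY28 4.66 higher.

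WRKY30 (AT5G24110) and WRKY55 (AT2G40740), both of group III, were nearly silent in drought WT leaves, though not there alone. WRKY55 had 0.654 CPM or less in every library outside drought jar1-11, and WRKY30 had 0.388, 0.478 and 0.136 CPM in drought JAR1-OE leaves. WRKY30, studied for tolerance of abiotic stress, had 150 reads over the drought jar1-11 libraries, against 2 over the drought WT libraries, a 79.8-fold difference with an exact binomial 95% interval of 21.7 to 665. Of the 150 reads, 109 were in the second library, and without it the difference was 36.1-fold (9.37 to 308). Per library these were 3.91, 14.6 and 3.12 CPM in jar1-11, against 0, 0.127 and 0.154 CPM in WT (edgeR adjusted p = 6.8e-05). WRKY55 had 60 reads, against 3, a 21.3-fold difference (6.94 to 106). Without the second drought jar1-11 library, which held 48 of the 60, it was 7.04-fold (1.90 to 38.9). WRKY55 lies 919 bases from WRKY54 on chromosome 2 and passed in edgeR's test with all libraries (adjusted p = 0.0045) but not without the second drought jar1-11 library (adjusted p = 0.087). WRKY38, a partner of WRKY62 in restraining defence, was 2.64 ± 0.69 higher (adjusted p = 0.0068), and lost in the same way (adjusted p = 0.055). The 1 member that was lower, WRKY65, had 0 reads, against 9, at least 2.82-fold lower. Without that library 18 of the 27 calls remained, all higher; WRKY1, WRKY38, WRKY39, WRKY48, WRKY50, WRKY55, WRKY61, WRKY65 and WRKY71 were lost. Without the first drought WT library there were 22 calls.

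When plants were watered, jar1-11 and WT leaves were not told apart in this family. By edgeR's test 0 of 55 members passed, where 0.00506% of all tested genes did, which is 1 gene. DESeq2 also called 0 members, and 5 had an unadjusted p under 0.05 in edgeR, a count given without the share over all tested genes. The median log2 fold change was -0.18. WRKY70 had 196, 161 and 226 CPM in watered jar1-11 leaves, against 168, 204 and 150.0 CPM in watered WT leaves, and WRKY33 34.7, 37.9 and 44.9 CPM, against 26.5, 35.8 and 28.5 CPM. Both genes overlapped between the groups. The libraries of the groups did not overlap for 11 of the 55 members, where this held for 9.95% of all tested genes. WRKY53 was one of them, at 18.1, 17.2 and 18.3 CPM in watered jar1-11 leaves, against 11.3, 15 and 10.9 CPM in watered WT leaves (0.52 ± 0.32, adjusted p = 0.91).

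Watered JAR1-OE leaves had less of 3 members than watered WT leaves and more of none, where 4.59% of all tested genes were lower and 4.35% higher (8.94% either way). WRKY18 had 36.3, 47.4 and 43 CPM in watered JAR1-OE leaves, against 132, 102 and 88.5 CPM in watered WT leaves (log2 fold change -1.34 ± 0.25, adjusted p = 0.0034 by edgeR's test), with no overlap. WRKY26 was 1.19 log2 units lower (-1.19 ± 0.32, adjusted p = 0.027), a call lost without the first watered WT library, the first watered JAR1-OE library, or the third one (adjusted p up to 0.174). WRKY25, at -0.59 ± 0.18 (adjusted p = 0.044), was lost in 13 of the 18 fits that left out 1 library (adjusted p up to 0.147).

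In drought, JAR1-OE leaves had more of 6 members than WT leaves and less of 1, where 8.09% of all tested genes were higher and 5.79% lower. The 6 were WRKY38, WRKY47, WRKY54, WRKY62, WRKY53 and WRKY7, of which 4 are salicylic acid and defence members and also belong to group III. The 7 calls were 4 without the second drought WT or the first drought JAR1-OE library, and 11 without the second drought jar1-11 library, which belongs to neither group. WRKY54 had 23.3, 12.9 and 20.5 CPM in drought JAR1-OE leaves, against 5.01, 4.05 and 8.79 CPM in drought WT leaves (log2 fold change 1.68 ± 0.31, adjusted p = 0.0013). WRKY53 had 15.6, 19.1 and 11.8 CPM, against 5.01, 4.81 and 7.09 CPM (1.46 ± 0.34, adjusted p = 0.0071). Neither gene overlapped between the groups. WRKY38 was 2.62 ± 0.68 higher (adjusted p = 0.014; 0.072 without the first drought JAR1-OE library) and WRKY47 1.74 ± 0.42 higher (adjusted p = 0.0081; 2.59 higher without the first drought WT library).

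WRKY62 was 1.66 ± 0.51 higher in drought JAR1-OE than in drought WT leaves (adjusted p = 0.035), and was lost in 5 of the 18 fits that left out 1 library (adjusted p up to 0.111). WRKY7 was 1.19 ± 0.29 higher (adjusted p = 0.0088; 0.0507 without the second drought WT library, and 1.79 higher without the third). The 1 lower member, WRKY32, had 10.9, 11.0 and 15.7 CPM, against 18.3, 20.6 and 20.7 CPM (-0.66 ± 0.19, adjusted p = 0.026), and was lost in 4 of those fits (adjusted p up to 0.117). The comparisons of jar1-11 and of JAR1-OE with WT share the drought WT libraries, so their values are set side by side only. WRKY54 was 1.48 higher in jar1-11 and 1.68 higher in JAR1-OE, WRKY53 2.00 and 1.46, WRKY38 2.64 and 2.62, WRKY18 2.47 higher and -0.18, and WRKY33 2.64 higher and -0.42.

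Closest matches within the family were compared as pairs. Identity in the tested pairs ran from 38.4% (WRKY38 and WRKY62) to 77.3% (WRKY39 and WRKY74). Of the 14 tested pairs in which each is the other's closest match in the family, 2 were called the same way in drought WT leaves, 7 had a call for 1 member and 5 for neither. In drought jar1-11 leaves 0 were called the same way, 2 were called in opposite directions, 8 had a call for 1 member and 4 for neither. The opposite pairs were WRKY25 and WRKY26 (41.7% identity, log2 fold changes 0.72 and -1.49) and WRKY70 and WRKY54 (46% identity, 1.22 and -0.98). The rise of WRKY70 was lost without the second drought jar1-11 library. In drought JAR1-OE leaves 0 pairs were called the same way, 0 in opposite directions, 5 had a call for 1 member and 9 for neither. Some paired members had few reads, WRKY74 with 30 and WRKY29 with 45 over the 18 libraries, which limits their calls. The pair counts were not set against those of unpaired members. WRKY75 rose by 5.90 and WRKY45, 55.8% identical and also a senescence gene, had -0.27 ± 0.32 (adjusted p = 0.50). WRKY4 rose by 1.53 and WRKY3, 72.8% identical and a partner of WRKY4 in necrotroph resistance, had -0.26 in the same leaves.

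The proteins around the family were listed as partners, kinases and known targets. VQ proteins bind WRKY factors and modulate them. Of the 6 tested VQ genes, 4 rose in drought jar1-11 leaves (3 without its second library), 1 in drought JAR1-OE leaves and 0 in drought WT leaves, where no VQ gene fell; of all tested genes 25.9%, 12.4% and 16.6% rose in these comparisons, so the counts in JAR1-OE and WT are near or under that share. SIB1, a partner of WRKY33, had 187 ± 76.0 CPM in drought jar1-11 leaves, against 55.8 ± 10.2 CPM in watered ones, and 64 ± 22.5 CPM in drought WT leaves, against 55.7 ± 15.9 CPM in watered ones (SD, n = 3 each). Its response was 1.55 ± 0.40 higher in jar1-11 than in WT (adjusted p = 0.015; 1.19 ± 0.35, adjusted p = 0.047, without the second drought jar1-11 library). VQ10, a partner of WRKY8, was 2.49 ± 0.51 higher in drought jar1-11 than in drought WT leaves (adjusted p = 0.0012). In that comparison 4 of the 6 were higher, where 14.1% of all tested genes were, and 2 of them, SIB1 and VQ10, without the second drought jar1-11 library, where VQ10 was 1.77 ± 0.48 higher (adjusted p = 0.016).

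The kinase cascade that phosphorylates WRKY factors was also higher in drought jar1-11 than in drought WT leaves for 7 of its 8 genes, by 0.44 (MPK6) to 1.29 (MKK2) on the log2 scale, and MPK3 was at 0.20 ± 0.24 (adjusted p = 0.56). Of all tested genes 14.1% were higher and 16.8% lower. Against watered leaves, 4 of the 8 rose and 1 fell in drought jar1-11, where 25.9% and 27.7% of all tested genes did. In drought WT 0 rose and 1 fell (16.6% and 18.8% of all), and in drought JAR1-OE 1 rose and 0 fell (12.4% and 13.6%). MKK2 had 47.6 ± 11.1 CPM in drought jar1-11 leaves, against 19.5 ± 2.73 CPM in drought WT leaves (1.29 ± 0.19, adjusted p = 8.2e-05). Of the 7, 5 remained without the second drought jar1-11 library, and MPK6 and MKK1 were lost. The difference of drought responses passed for 2 of the 8, MKK2 and MEKK1, with or without that library, where 5.72% of all tested genes had a higher response. These are transcript levels and say nothing of kinase activity.

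Of the 13 tested genes listed as targets of WRKY factors, 9 were higher in drought jar1-11 than in drought WT leaves and 0 lower, where 14.1% and 16.8% of all tested genes were, with a median log2 fold change of 2.21. The difference of drought responses passed for 3 of the 13, PAD3, CYP71A12 and SARD1, all higher in jar1-11, where 5.72% of all tested genes were, and for SARD1 alone without the second drought jar1-11 library. PAD3, the last step of camalexin synthesis and a target of WRKY33, had 299 ± 197 CPM in drought jar1-11 leaves, against 35.8 ± 31.5 CPM in drought WT leaves (3.05 ± 0.56, adjusted p = 0.00054). Its response to drought differed by 3.14 ± 0.81 (adjusted p = 0.016; 0.056 without the second drought jar1-11 library). CYP71A13, another camalexin gene, had 392 ± 249 CPM, against 22.7 ± 25.7 CPM (4.08 ± 0.71, adjusted p = 0.00034), with a wide spread in both groups. ICS1, the salicylic acid synthesis gene, was 2.31 ± 0.51 higher (adjusted p = 0.0020). SARD1, which activates ICS1, was 2.51 ± 0.40 higher (adjusted p = 0.00019). Of the 9, 7 remained without the second drought jar1-11 library, and PR1 and SAG101 were lost. PAD3 was then 2.37 ± 0.53 higher, CYP71A13 3.44 ± 0.68, ICS1 1.52 ± 0.45 (adjusted p = 0.026) and SARD1 1.80 ± 0.33.

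Some listed targets did not pass this test. SAG12, the senescence marker of WRKY53 studies, had 1.60 ± 2.78 CPM in drought jar1-11 leaves, against 0.598 ± 0.827 CPM in drought WT leaves (adjusted p = 0.59). PHO1, repressed by WRKY6 in phosphate supply, had 1.32 ± 0.713 CPM, against 2.22 ± 0.826 CPM (adjusted p = 0.21). ABI5, the ABA response gene repressed by WRKY40, had 8.66 ± 2.00 CPM, against 12.1 ± 4.55 CPM (adjusted p = 0.32), and rose in drought in all 3 genotypes, by 2.01 in jar1-11, 2.53 in JAR1-OE and 2.06 in WT on the log2 scale. In drought WT leaves 4 of the 13 targets rose (CYP71A13, ABI5, PAD3 and CBP60G) and 3 fell (SARD1, SAG101 and NPR1), where 16.6% of all tested genes rose and 18.8% fell. The number of targets called there, 7 with all libraries, was 4 without the second drought WT library, 4 without the first or the second watered WT library and 3 without the third.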

How the data were processed

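RNA of whole rosette leaves was sequenced with a 3′ mRNA kit as single 50-base reads, per the labels. The authors deposited unique gene read counts per library, not normalized; no source used here gives the aligner, counter, build or strand setting. The counts were fitted with edgeR 4.0.16 (R 4.3.3): TMM scaling, 1 mean per group over the 18 libraries, the quasi-likelihood test, genes with 20 or more reads in all (19752 of 27655), Benjamini-Hochberg adjustment over all tested genes within each of 10 comparisons, and a threshold of 0.05. CPM use TMM-scaled totals. The biological coefficient of variation was 20.11%. The YFP-JAR1 entry names no gene of the annotation and stayed out of totals and tests. Depth was 4716155 to 9506727 reads per library, which limits members with few reads. Replicate pairs differed by more than sampling noise (chi-square over degrees of freedom 5.54 to 27.9 in 18 pairs).

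Gene IDs were matched to TAIR10.1 (27445 of 27655), from which motifs, promoters and protein identities were read. Of the 70 members, 67 have the same symbol there. Named members are the up to 8 largest rises and falls past the threshold of each drought comparison whose higher group averaged 5 CPM or more, and up to 6 each way in the other comparisons, from 2 CPM; further members are named by role. VQ14 of the partner list was dropped, since its identifier and symbol were not matched together in the files and the reference. The members and lists were chosen with earlier results of these data known. Scripts were tested on simulated data. Alternatives were a filterByExpr filter, no filter beyond 1 read, RLE scaling, a replicate block, DESeq2 1.42.0 and leaving out each library. For the partner, kinase and target genes, leaving out each library was added after seeing the data, as were the counts by family group and role, and the read ratios, without the second drought jar1-11 library.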

Additional observations from a re-analysis of the deposited data

Results flagged for a closer look

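The tested difference of drought responses between genotypes (edgeR's quasi-likelihood test of the interaction, adjusted p under 0.05) passed for 19 members between jar1-11 and WT, 3 between JAR1-OE and WT and 19 between JAR1-OE and jar1-11. The values given here are those of the members named by the rule, up to 6 each way in a comparison. The difference between jar1-11 and WT was 5.53 log2 units for WRKY30, 4.30 for WRKY75, 4.29 for WRKY28, 3.74 for WRKY71, 3.50 for WRKY61 and 2.97 for WRKY6, all higher in jar1-11. For WRKY30 the value rests on 2 reads in drought WT leaves and depends on the prior count of the fit. WRKY71 is known for shoot branching, and WRKY61 was lost in 5 of the 18 fits that left out 1 library (adjusted p up to 0.103). WRKY75 was lost in 3 of them, without the first watered WT, the second watered jar1-11 or the second drought jar1-11 library (adjusted p up to 0.0554).

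Between JAR1-OE and WT the difference was 2.25 for WRKY54, 1.92 for WRKY47 and 1.43 for WRKY7, higher in JAR1-OE.

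Between JAR1-OE and jar1-11 the response was higher in JAR1-OE for WRKY65 (5.55, resting on 0 reads in drought jar1-11 leaves), WRKY7 (2.07), WRKY47 (1.51), WRKY54 (1.13) and WRKY21 (0.64). It was lower in JAR1-OE for WRKY28 (-4.75), WRKY75 (-4.46), WRKY30 (-3.88), WRKY6 (-3.17), WRKY15 (-2.49) and WRKY23 (-2.33). WRKY23, WRKY47, WRKY54 and WRKY21 were lost in 11, 9, 9 and 15 of the fits that left out 1 library. WRKY75 and WRKY30 were lost without the first watered JAR1-OE library, with adjusted p of 0.0587 and 0.0544.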

How the results depend on the processing

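Of 68 values of named members, 43 kept direction and threshold in all 23 alternatives, 17 lost the threshold only when 1 library was left out, 8 lost it under another setting, and 0 changed direction. Members that rose in JAR1-OE drought numbered 3, and 1 without a filter beyond 1 read, with RLE scaling and with DESeq2; the cause was not tested. The difference of responses between JAR1-OE and WT gave 3 calls, 5 without that filter and 8 with DESeq2. Same-numbered replicates of different groups were not pairs by the labels, and their deviations correlated at -0.277 to 0.151 (over 0.1 in 5 of 45 pairs). With a replicate block, 3 members rose and 17 fell in WT, 24 and 9 in jar1-11, and 2 and 6 in JAR1-OE; 28 were called between drought jar1-11 and WT, 0 between watered ones, 2 and 6 between watered and drought JAR1-OE and WT, and 18, 2 and 18 in the 3 differences of responses.

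Leaving out 1 library gave 3 to 5 rises and 12 to 19 falls in WT, 17 to 27 and 8 to 10 in jar1-11, and 1 to 5 and 2 to 7 in JAR1-OE. It gave 18 to 28 calls between drought jar1-11 and WT, 0 between watered ones, 1 to 4 between watered JAR1-OE and WT, and 4 to 11 between drought JAR1-OE and WT. The differences of responses gave 12 to 22 (jar1-11 minus WT), 1 to 6 (JAR1-OE minus WT) and 12 to 21 (JAR1-OE minus jar1-11). RLE scaling moved the median of all genes by less than 0.04. The partner, kinase and target genes were also fitted without each library, an alternative chosen after seeing the data: between drought jar1-11 and WT these gave 2 to 4, 5 to 7 and 7 to 9 calls.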
